A study of Mus musculus with 72 samples.

Results

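The genes described here encode the machinery of oxidative phosphorylation. They are the rows of the count table whose symbols begin with the stems of the subunits of complexes I to V (Nduf followed by a, b, c, s or v; Uqcr; Cox4 to Cox8 followed by a, b or c; Atp5; and Sdha to Sdhd) or with the mitochondrial stems mt-Nd, mt-Co, mt-Atp and mt-Cytb, without the 15 rows named as pseudogenes. This gave 111 of the 56691 gene rows, 98 of them encoded in the nucleus and 13 in the mitochondrial genome. The stems take in 8 complex I assembly factors (Ndufaf) and leave out the Cox4i genes. The annotation lists 4 members that are not named as pseudogenes as processed pseudogenes all the same (Ndufb4c, Ndufa11b, Ndufs6b and Cox6c2), and types the row of Ndufb1 as a non-coding RNA. Of these 4, Ndufb4c passed the count filter. It is identical to Ndufb4 over its 390 bases and held 11528 counts against 2213 for Ndufb4, so the division of reads between them is uncertain.

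RNA was sequenced from mouse early secondary follicles, the stage at which an oocyte is enclosed by a few layers of granulosa cells. Follicles were cultured for 24 h without follicle-stimulating hormone (FSH) or with 1 or 10 ng/ml of 1 of 2 glycoforms of it, the hypoglycosylated FSH21 or the more fully glycosylated FSH24, and every culture held α-MEM-Glutamax, bovine serum albumin, fetuin and insulin-transferrin-selenium. There were 6 groups of 3 libraries, sequenced on 4 lanes each and deposited as 72 samples. Libraries numbered 1, 5 and 6 formed the 1 ng/ml groups and 1 set of untreated follicles, and numbers 2, 3 and 4 formed the 10 ng/ml groups and the other untreated set. Each FSH group was compared with the untreated libraries of its own numbers, so FSH21 and FSH24 at a dose share their controls. The labels used here do not give the strain or age of the mice, or the number of follicles or animals behind a library. They speak of biological replicates but name no separate animals or cultures. The p-values therefore describe the spread of libraries within groups, estimated over all 6 groups together, and some of that spread may be technical.

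Oxidative phosphorylation passes electrons from NADH through complex I, and from succinate through complex II, to coenzyme Q, then through complex III and cytochrome c to oxygen at complex IV. Complexes I, III and IV pump protons across the inner mitochondrial membrane, and complex V, the ATP synthase, uses the gradient to make ATP. Most subunits are encoded in the nucleus and imported, while the mitochondrial genome encodes 13 core subunits. The growing oocyte depends on this pathway for ATP and is supplied with pyruvate by the granulosa cells. FSH acts through its receptor on granulosa cells.

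Library totals ran from 17.5 to 22.5 M counts (M, mega), with a median of 21.4 M. Levels are CPM, that is counts scaled to a common total of 1 mega, on library totals scaled by the trimmed mean of M-values, and levels of different genes are compared only per kilobase of transcript. A gene was called changed at a Benjamini-Hochberg adjusted p under 0.05 in edgeR's quasi-likelihood test over the 18727 genes that passed the count filter. Of the members, 91 nuclear and all 13 mitochondrial genes passed it. The 7 that did not were Cox8b with 0 counts over the 18 libraries, Cox7b2 with 1, Ndufa11b with 4, Cox6c2 with 10, Ndufs6b with 24, Cox8c with 40 and Ndufb11b with 71. Markers of both cell types of the follicle were present: all 8 granulosa and all 10 oocyte markers listed were tested, red blood cell markers summed to at most 0.825 CPM, and none of their 3 passed the filter.

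The nuclear genes of this pathway are known for a small set of shared promoter elements. Promoter windows of 300 bases (250 before to 50 after the annotated start, RefSeq, GRCm38.p6) were found for 77 of the 98 nuclear members and searched on both strands. The NRF1 motif (GCGCA, then any base, then GCGC) was in 18 of them (23.4%), against 4.6% of the 32851 mouse promoter windows of that length. The ETS motif CCGGAAG, the core bound by GABP, was also in 18 (23.4%, against 8.86%), the YY1 motif AAGATGGCG in 7 (9.09%, against 1.4%) and the oestrogen-related receptor motif TNAAGGTCA in 3 (3.9%, against 1.28%). At least 1 of the 4 motifs was in 37 windows (48.1%, against 14.7%), among them 15 of 33 for complex I subunits, 3 of 3 for complex II, 3 of 5 for complex III, 3 of 14 for complex IV, 9 of 15 for complex V and 4 of 7 for the complex I assembly factors. The motifs were taken as fixed letters, and a match describes the window only. Each member had 1 window, the first listed for its gene. The windows of all genes were not reduced to 1 per gene or to genes tested here, so the shares compared are not fully alike. The following stretches (5′ to 3′, GRCm38.p6, motif in capitals) show 1 match each in core subunits of complexes II and III and in Ndufa9 of complex I.
Sdha, NRF1, chr13:74350271-74350310, minus strand: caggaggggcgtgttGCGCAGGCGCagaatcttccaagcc
Sdhb, ETS, chr4:140961262-140961298, plus strand: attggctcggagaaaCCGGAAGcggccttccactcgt
Uqcrc1, NRF1, chr9:108936663-108936697, plus strand: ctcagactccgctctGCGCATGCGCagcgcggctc
Ndufa9, YY1, chr6:126849095-126849130, minus strand: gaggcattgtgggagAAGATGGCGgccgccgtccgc

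The only 3 nuclear members called in any comparison of FSH with untreated follicles were Cox7a2l, Ndufb5 and Ndufaf3. None of the 4 motifs was found in the windows searched for them. Any of the motifs was found in 37 of the 77 member windows, and a difference of these 3 from that share was not tested. The window of Cox7a2l lies inside the gene, which runs from 83501918 to 83517330 on the minus strand. Sequence before the start at 83517330 was not searched. The 3 windows are shown whole, since their genes are described below (5′ to 3′, GRCm38.p6, no capitals because nothing matched).
Cox7a2l, chr17:83514284-83514583, minus strand: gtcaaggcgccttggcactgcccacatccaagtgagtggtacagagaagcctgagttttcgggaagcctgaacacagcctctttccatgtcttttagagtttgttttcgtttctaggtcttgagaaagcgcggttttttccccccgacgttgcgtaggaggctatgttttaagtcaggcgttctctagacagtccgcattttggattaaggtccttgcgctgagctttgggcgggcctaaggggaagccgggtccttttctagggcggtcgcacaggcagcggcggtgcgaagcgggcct
Ndufb5, chr3:32736813-32737112, plus strand: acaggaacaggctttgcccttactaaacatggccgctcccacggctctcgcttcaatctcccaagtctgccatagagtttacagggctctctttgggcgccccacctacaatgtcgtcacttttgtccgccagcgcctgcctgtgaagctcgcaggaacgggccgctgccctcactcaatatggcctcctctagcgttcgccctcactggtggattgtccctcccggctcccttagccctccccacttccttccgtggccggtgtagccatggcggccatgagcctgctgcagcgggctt
Ndufaf3, chr9:108567387-108567686, minus strand: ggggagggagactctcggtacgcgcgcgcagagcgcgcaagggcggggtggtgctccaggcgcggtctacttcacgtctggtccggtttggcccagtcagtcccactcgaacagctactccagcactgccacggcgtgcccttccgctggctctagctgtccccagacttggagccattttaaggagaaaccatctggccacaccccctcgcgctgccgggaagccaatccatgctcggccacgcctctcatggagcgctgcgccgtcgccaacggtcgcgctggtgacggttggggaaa

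In untreated follicles the typical nuclear member stood above the typical gene, and the complex I assembly factors stood below it. Over the 6 untreated libraries the median nuclear member was at 52.4 CPM per kb, against 9.42 for the 15020 nuclear protein-coding genes tested. Complex medians were 44.9 CPM per kb for complex I subunits, 44.5 for complex II, 70.2 for complex III, 77.8 for complex IV and 79.9 for complex V. Complex I assembly factors, which are needed to build the complex but are not part of it, had a median of 6.71. The highest member of each was Ndufa6 for complex I (106 CPM per kb), Sdha, the flavoprotein of complex II (84.5), the hinge protein gene Uqcrh for complex III (144), Cox6c for complex IV (174) and Atp5g3, a gene for the membrane-embedded c subunit, for complex V (385).

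Of the best-known subunits, several of them catalytic, a selection is given here. For complex I, Ndufs1, which holds iron-sulfur clusters, was at 26.9 ± 1.43 CPM per kb, Ndufv1, the flavoprotein that takes electrons from NADH, at 41.7 ± 2.82 and the accessory subunit Ndufa9 at 38.8 ± 1.98 (SD, n = 6 untreated libraries). Sdhb, the iron-sulfur subunit of complex II, was at 41.8 ± 2.37. In complex III the core proteins Uqcrc1 and Uqcrc2 were at 68.7 ± 3.07 and 71.1 ± 3.79, and the Rieske protein Uqcrfs1 at 37.1 ± 3.15. In complex IV, Cox5a was at 77.8 ± 5.44 and Cox5b at 91.4 ± 6.92. The ATP synthase subunits alpha (Atp5a1), beta (Atp5b) and gamma (Atp5c1) were at 229 ± 6.65, 316 ± 16.9 and 69.9 ± 4.13. The alpha and beta subunits, which stand in several copies in each enzyme, were thus higher per length than the single gamma subunit.

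Subunits with several isoforms were expressed mainly from the widely expressed gene. Cox6a1 was at 157 ± 8.61 CPM per kb, and its heart and muscle isoform Cox6a2 at 0.519. Cox8a was at 97.6, while the muscle isoform Cox8b had no count, which allows up to 3 counts over all libraries. Cox7a2l (87.7) and Cox7a2 (66.5) stood above the muscle isoform Cox7a1 (2.04). Cox6b1 was at 107, and Cox6b2, known as a testis isoform, at 24.5 ± 3.53 (SD, n = 6). Ndufa4 was at 113 and its paralogue Ndufa4l2, a gene induced by low oxygen in other cells, at 2.69. Among the c subunit genes Atp5g3 (385) was followed by Atp5g1 (63.6) and Atp5g2 (17.9), but Atp5g2 shares 645 identical bases with the annotated copy Gm10175, which held 27767 counts over the 18 libraries against 3022 for Atp5g2. The level of Atp5g2 therefore rests on how reads were divided. In all, 16 nuclear members had an annotated copy elsewhere with at least 98% identity over at least 100 bases and at least 50% of the copy.

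**Figure D1:**
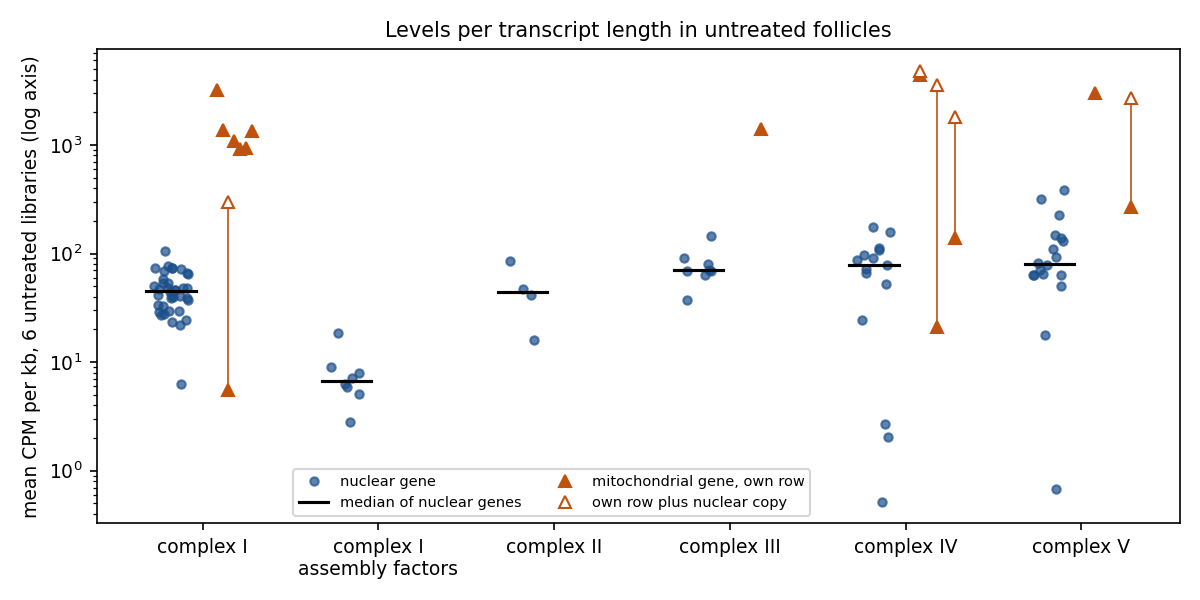
Mean level per kilobase of transcript in the 6 untreated libraries (CPM per kb, log axis) of each tested member by complex; circles are nuclear genes, lines their medians, filled triangles mitochondrial genes and open triangles the sum of a mitochondrial gene and its nuclear copy. Nuclear medians lie between 44.5 and 79.9 for the 5 complexes and at 6.71 for the assembly factors, and mt-Co2, mt-Co3, mt-Atp6 and mt-Nd3 lie far below their sums.

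The 13 mitochondrial messenger RNAs were more abundant per length than the nuclear ones, with a median of 1089 CPM per kb. On their own rows, mt-Co1 of complex IV was at 4432 ± 575, mt-Nd1 of complex I at 3226 ± 315 and mt-Atp8 of complex V at 3018 ± 406 (SD, n = 6). mt-Cytb, the complex III subunit, was at 1414, and the complex I subunits mt-Nd2, mt-Nd4l, mt-Nd4, mt-Nd6 and mt-Nd5 at 1386, 1336, 1089, 941 and 917. The remaining 4 were low: mt-Atp6 at 266, mt-Co3 at 138, mt-Co2 at 21.2 and mt-Nd3 at 5.55. Neighbours in this order such as mt-Nd5 and mt-Nd6, or mt-Nd2, mt-Nd4l and mt-Cytb, differed by less than their SDs.

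Those 4 low values rest on the division of reads between the mitochondrial genome and a stretch of chromosome 1 that holds near-identical copies of 7 mitochondrial members, annotated as unprocessed pseudogenes on the minus strand. mt-Co2 and Gm28661 (chr1:24614885-24615565, GRCm38) were identical in all 681 aligned bases. mt-Nd3 and Gm28438 (chr1:24612775-24613119) differed at 1 of 345 bases. The first 41 bases of each pair are shown because a read from them names its source only at that base (5′ to 3′, GRCm38, differing base in capitals).
mt-Co2, chrM:7013-7053, plus strand: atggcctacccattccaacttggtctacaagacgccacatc
Gm28661, chr1:24615525-24615565, minus strand: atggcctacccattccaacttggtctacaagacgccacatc
mt-Nd3, chrM:9459-9499, plus strand: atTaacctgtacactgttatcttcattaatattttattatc
Gm28438, chr1:24613079-24613119, minus strand: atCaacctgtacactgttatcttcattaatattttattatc

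The deposited counts put most reads of these pairs on the chromosome 1 copies. mt-Co2 ranged from 0 to 59.8 CPM and was at 0 in 8 libraries, while Gm28661 ranged from 1869 to 2842 CPM, so mt-Co2 held 0.562% of the sum. mt-Nd3 ranged from 0 to 9.14 CPM, was at 0 in 9 libraries and held 2.26% of the sum with Gm28438. mt-Atp6 ranged from 24.6 to 392 CPM and held 9.69% of the sum with Gm10925, and mt-Co3 ranged from 0.0937 to 444 CPM and held 14.99% of the sum with Gm28437. For mt-Co1, whose copy Gm29216 matches 483 of its 1545 bases, 91.8% of the sum stood on the mitochondrial row. The copies of mt-Nd4 and mt-Nd4l held no count. Adding the copies lowered the coefficient of variation over the 18 libraries from 135% to 11.8% for mt-Co2, from 117% to 21.3% for mt-Nd3, from 72.9% to 15.1% for mt-Co3 and from 52.5% to 12.3% for mt-Atp6. Most of each sum was the copy row, nearly all of it for mt-Co2 and mt-Nd3, so this drop does not show how reads were divided. As sums, untreated levels were 4818 CPM per kb for mt-Co1, 3601 for mt-Co2, 2681 for mt-Atp6, 1806 for mt-Co3 and 296 for mt-Nd3. Transcripts of the 2 locations cannot be told apart where the sequence is identical.

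**Figure D2:**
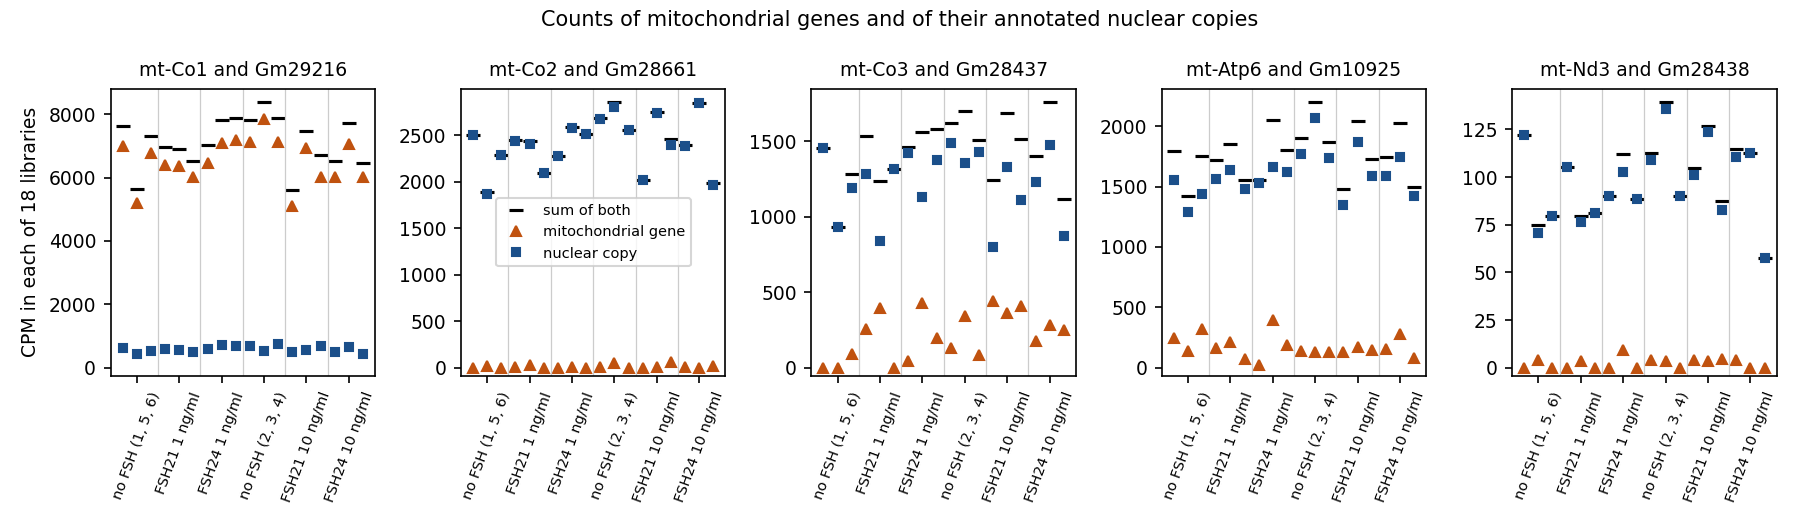
CPM of 5 mitochondrial genes (triangles), their chromosome 1 copies (squares) and the sum of both (dashes) in each of the 18 libraries, in 6 groups of 3 along each horizontal axis; vertical axes are linear and differ between panels. mt-Co2 stays at or below 59.8 CPM in every library while its copy lies between 1869 and 2842 CPM, and for mt-Co1 the order is the opposite.

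The summed share of the pathway overlapped between treated and untreated libraries at both doses. The 98 nuclear members took 0.572 ± 0.0307% of all counts in the untreated libraries numbered 2, 3 and 4, 0.569 ± 0.00792% with FSH21 at 10 ng/ml and 0.556 ± 0.00694% with FSH24 at 10 ng/ml (SD, n = 3). At the low dose they took 0.555 ± 0.0371% in untreated follicles, 0.551 ± 0.0288% with FSH21 and 0.605 ± 0.0303% with FSH24. The 13 mitochondrial rows took 1.94 ± 0.170%, 1.76 ± 0.220% and 1.78 ± 0.213% at the high dose and 1.66 ± 0.271%, 1.73 ± 0.110% and 1.80 ± 0.0939% at the low dose, in the same order. These shares leave out the chromosome 1 copies, which held most reads of some of these genes. In RNA of whole follicles, fewer cells of a type and less RNA per cell cannot be told apart.

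**Figure D3:**
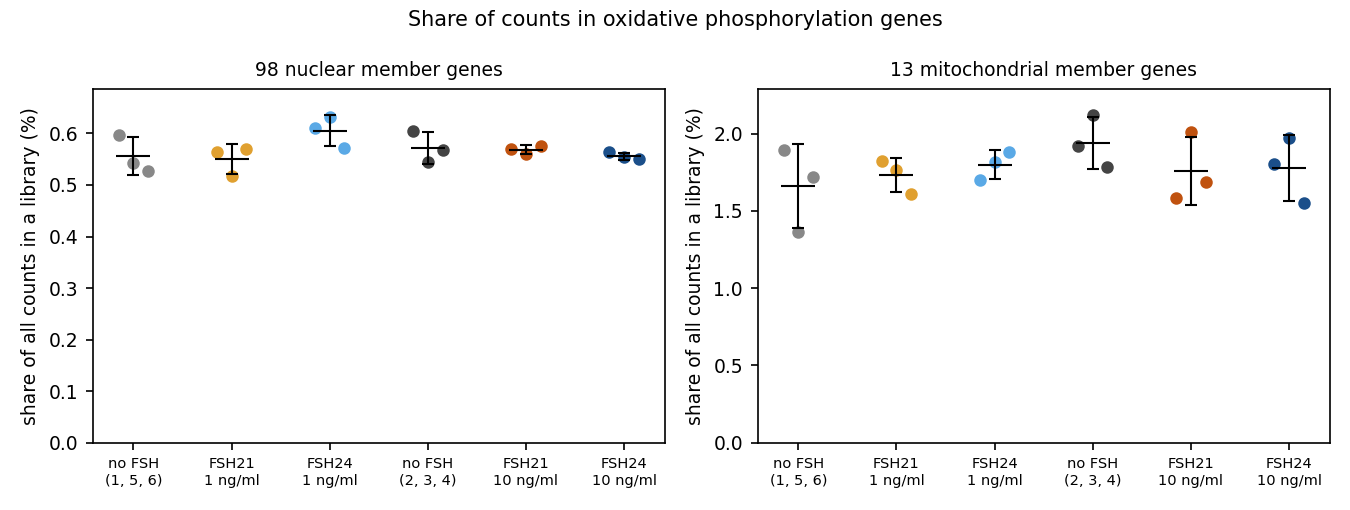
Share of all counts (%) in the 98 nuclear and the 13 mitochondrial members in each library; points are libraries, the wide line is the group mean and the bars 1 SD (n = 3). Nuclear shares lie between 0.518 and 0.633% and mitochondrial shares between 1.36 and 2.12%, and each FSH group overlaps its untreated libraries. Counts on the chromosome 1 copies are not included.

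At 10 ng/ml FSH21, the pathway as a whole stayed close to its untreated level, with 3 nuclear genes called. Ndufaf3 rose, and Cox7a2l and Ndufb5 fell. These were 3 of the 91 tested nuclear members, or 3.3%, where edgeR's quasi-likelihood test called 10.2% of all genes tested. No mitochondrial gene was called. An unadjusted p under 0.05 was found for 10 nuclear members and 1 mitochondrial gene, against 22% of all genes tested. DESeq2's Wald test called 3 nuclear and 0 mitochondrial members, against 12.9% of the genes it gave an adjusted p. The median log2 fold change was 0.02 for the nuclear members, with 52 of 91 above 0, and 0.00 for both the mitochondrial genes and all genes tested. The mitochondrial median lay between −0.18 without treated number 3 and 0.09 without treated number 2, and was −0.13 with copies summed, 0 of 13 genes then lying above 0. By complex it was 0.05 for complex I subunits, −0.20 for the complex I assembly factors, and no further than 0.02 from 0 for complexes II to V. The 3 FSH21 libraries lay entirely above the 3 controls for 14 of the 104 tested members and entirely below for 10. Over all genes tested the shares were 15.7% above and 12% below.

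FSH24 at 10 ng/ml gave 1 called member, Cox7a2l, which fell. That is 1.1% of the nuclear members, against 8.42% of all genes tested. No mitochondrial gene was called by edgeR or by DESeq2. DESeq2 called 2 nuclear members, against 10.8% of the genes it gave an adjusted p. With the library numbers as a block edgeR called 4 nuclear members, a readthrough row of Atp5o among them, against 13.6% of all genes tested. Unadjusted p-values under 0.05 were found for 8 nuclear and 0 mitochondrial members, against 20.8% of all genes. Median log2 fold changes were −0.03 for the nuclear members, with 34 of 91 above 0, −0.10 for the mitochondrial genes and 0.00 for all genes. With copies summed the mitochondrial median was −0.19, with 0 of 13 above 0. The libraries lay entirely above the controls for 2 of the 104 members, against 13.8% of all genes tested, and entirely below for 9, against 10.7%.

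**Figure D4:**
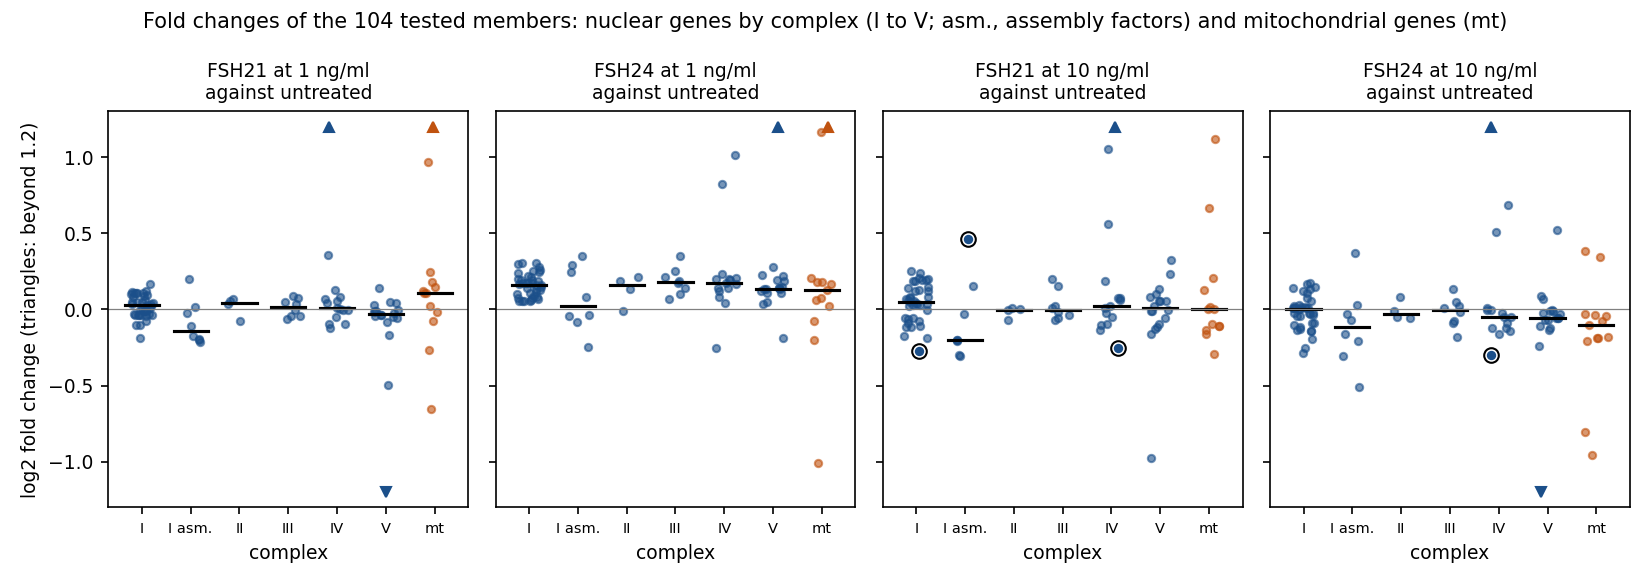
Log2 fold change of each of the 104 tested members in 4 comparisons with untreated follicles, by complex (I asm., complex I assembly factors; mt, mitochondrial genes); lines are medians, ringed points are called genes, and triangles mark values beyond ±1.2. The 3 ringed genes with FSH21 at 10 ng/ml are Ndufaf3, Cox7a2l and Ndufb5, the 1 with FSH24 is Cox7a2l, and complex I points all lie above 0 with FSH24 at 1 ng/ml without any being called.

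Cox7a2l, which encodes a factor that joins complexes III and IV into supercomplexes, was the member called with both forms (chromosome 17, 83501918 to 83517330, minus strand). Its level was 102, 94.9 and 96.0 CPM in untreated libraries 2, 3 and 4, and 76.9, 82.5 and 86.8 CPM with FSH21 at 10 ng/ml. With FSH24 at 10 ng/ml it was 81.3, 80.4 and 76.5 CPM. Every library treated at the high dose lay below every control of its numbers. The log2 fold change was −0.25 (SE 0.07, adjusted p = 0.0245 by edgeR's quasi-likelihood test) with FSH21 and −0.30 (SE 0.07, adjusted p = 0.00926) with FSH24. The FSH21 value missed the threshold without control number 2 (adjusted p = 0.0691), treated number 2 (0.101) or treated number 3 (0.0541), each with the same direction.

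The processed pseudogene Gm6969 on chromosome 12 holds 213 bases identical to Cox7a2l (bases 56 to 268 of the transcript), and it fell as well with FSH21 (−0.41, adjusted p = 0.0280 by edgeR). In the stretches here the end of the identical run is in lower case and capitals mark what follows it. The letters match again, for 88 bases, after 1 base of Cox7a2l and 7 of Gm6969.
Cox7a2l: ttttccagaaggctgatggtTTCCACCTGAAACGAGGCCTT
Gm6969: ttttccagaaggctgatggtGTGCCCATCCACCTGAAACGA
With both rows summed, the fold change was −0.31 (adjusted p = 0.00613 by edgeR) with FSH21 and −0.33 (adjusted p = 0.00506) with FSH24. The call for Cox7a2l was thus present with the rows apart and together.

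Ndufb5, an accessory subunit of complex I (chromosome 3, 32736990 to 32751566, plus strand), was at 46.7, 48.1 and 50.7 CPM in untreated libraries and at 38.9, 40.4 and 41.3 CPM with FSH21 at 10 ng/ml. With FSH24 at that dose it was at 36.5, 45.1 and 40.6 CPM. Each treated library again lay below each control. The log2 fold change was −0.27 (SE 0.09, adjusted p = 0.0494 by edgeR) with FSH21 and −0.25 (adjusted p = 0.0774, not called) with FSH24. The FSH21 call was lost without any 1 of the 6 libraries (adjusted p from 0.0502 to 0.131). With the library numbers as a block Ndufb5 was called with FSH21 (adjusted p = 0.0283 by edgeR) and with FSH24 (0.0424). DESeq2's Wald test also called it with FSH24 (adjusted p = 0.0429). Ndufb5 overlaps 616 exon bases of Mrpl47 on the opposite strand, and the use of strand in counting was not given, so reads there cannot be told apart.

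Ndufaf3, which is required to assemble complex I (chromosome 9, 108565537 to 108567434, minus strand), moved the other way. It was at 6.46, 7.70 and 7.78 CPM in untreated libraries, at 9.71, 9.36 and 11.2 CPM with FSH21 at 10 ng/ml and at 9.22, 9.46 and 9.68 CPM with FSH24. All treated libraries lay above the controls. The log2 fold change was 0.46 (SE 0.12, adjusted p = 0.0154 by edgeR) with FSH21 and 0.37 (adjusted p = 0.0619, not called) with FSH24. The FSH21 call was lost without a count filter (adjusted p = 0.105), in a fit of the compared groups alone (0.0782), without control number 2 (0.0868) and without treated number 4 (0.0949). With the library numbers as a block Ndufaf3 was called with FSH21 (adjusted p = 0.0102 by edgeR) and with FSH24 (0.0414), while DESeq2 did not call it with FSH24. Of the other 7 assembly factors, 6 had fold changes below 0, from −0.30 (Ndufaf6) to −0.03 (Ndufaf7), and 1 above, Ndufaf8 at 0.15, none of them called. Ndufaf3 overlaps 48 exon bases of Impdh2 on the opposite strand, which fell with FSH21 (−0.51) and with FSH24 (−0.45).

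**Figure D5:**
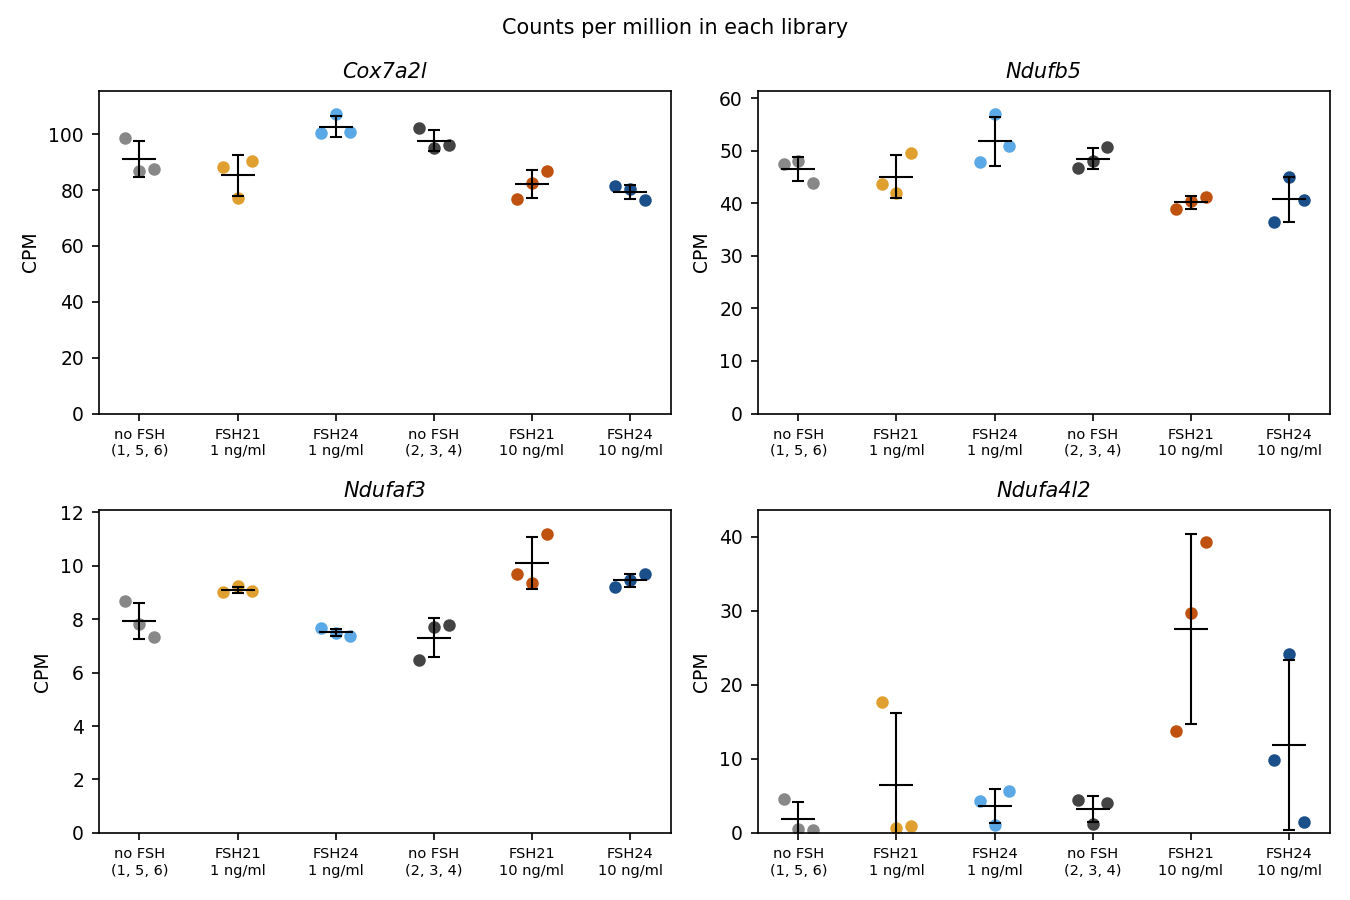
CPM in each library of Cox7a2l, Ndufb5, Ndufaf3 and Ndufa4l2 by group; points are libraries, the wide line is the group mean and the bars 1 SD (n = 3). With either form at 10 ng/ml, Cox7a2l and Ndufb5 lie below and Ndufaf3 above all untreated libraries of the same numbers, and the treated Ndufa4l2 values spread from 1.5 to 39.3 CPM.

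The selected subunits did not pass the test at 10 ng/ml. Over Ndufs1, Ndufv1, Ndufa9, Sdha, Sdhb, Uqcrc1, Uqcrc2, Uqcrfs1, Cox5a, Cox5b, Atp5a1, Atp5b and Atp5c1, log2 fold changes with FSH21 ran from −0.13 (Atp5c1) to 0.08 (Ndufs1) and with FSH24 from −0.12 (Atp5c1) to 0.17 (Ndufs1). Atp5b, for example, was at 601 ± 34.1 CPM untreated, 597 ± 2.94 with FSH21 and 600 ± 18.3 with FSH24 (SD, n = 3), and the 95% interval of its log2 fold change with FSH21 was −0.14 to 0.13. Over all nuclear members the median SE was 0.09. The 95% interval lay within ±0.5 on the log2 scale for 80 of 91 nuclear members with either form.

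The mitochondrial genes were measured less precisely, with a median SE of 0.19, and 5 of 13 intervals lay within ±0.5 with FSH21 and 6 with FSH24. mt-Co1, the catalytic subunit of complex IV, was at 7125, 7863 and 7115 CPM in untreated libraries and at 5097, 6928 and 6019 CPM with FSH21 at 10 ng/ml. With FSH24 it was at 6033, 7071 and 6029 CPM. All treated values lay below all controls, but neither difference was called (−0.29, SE 0.11, adjusted p = 0.121 and −0.21, SE 0.11, adjusted p = 0.321 by edgeR). With the library numbers as a block, mt-Co1 was called with FSH21 (−0.30, SE 0.09, adjusted p = 0.0313 by edgeR). The largest numbers on the mitochondrial rows, such as 1.12 for mt-Co3 with FSH21 (SE 1.51), came from rows that shared reads with a counted copy. After summing with the copies, log2 values with FSH21 were −0.30 for mt-Co1, −0.20 for mt-Atp6, −0.18 for mt-Co2, −0.14 for mt-Co3 and −0.12 for mt-Nd3, and with FSH24 −0.24, −0.20, −0.18, −0.19 and −0.28. None of these sums was called, and their SEs ran from 0.11 to 0.27. On rows with no counted copy the FSH21 values were −0.16 for mt-Atp8, −0.14 for mt-Nd1, −0.11 for mt-Nd5 and mt-Nd6, −0.09 for mt-Nd2, 0.02 for mt-Nd4l and 0.00 for mt-Nd4 and mt-Cytb, and the FSH24 values lay between −0.19 and −0.03.

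Ndufa4l2 spread widely between libraries. It was at 4.44, 1.15 and 4.07 CPM in untreated libraries 2, 3 and 4, and at 13.8, 29.7 and 39.3 CPM with FSH21 at 10 ng/ml. With FSH24 it was at 9.88, 24.2 and 1.5 CPM, and at the low dose 1 FSH21 library (number 1) was at 17.6 CPM beside 0.625 and 0.977 CPM. The FSH21 libraries at 10 ng/ml lay above all controls, and the FSH24 libraries overlapped them. The fold change with FSH21 was not called (log2 3.10, SE 1.27, adjusted p = 0.166 by edgeR), except in a fit of the compared groups alone (3.09, adjusted p = 0.0329). Cox4i2, the low-oxygen isoform of complex IV subunit 4, which the symbol stems leave out, was at 6.75, 10.1 and 12.02 CPM in the same FSH21 libraries and at 3.98, 1.79 and 2.80 CPM in their controls, with no call (1.76, adjusted p = 0.316). Cox7a1 (1.05, SE 0.36) and Ndufc2 (0.25) with FSH21 also missed the threshold (adjusted p = 0.0772 and 0.0901). With the replicate block Ndufc2 passed it (0.25, adjusted p = 0.0182 by edgeR), so that 4 nuclear members were called, against 15.1% of all genes tested.

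With 1 ng/ml FSH24 no member was called, yet nearly all nuclear members lay slightly above their controls. The median log2 fold change was 0.16 over the nuclear members, with 84 of 91 above 0, against 0.00 over all genes tested, of which edgeR called 0%. DESeq2's Wald test called 0 members here. All 38 complex I rows, the pseudogene Ndufb4c among them, lay above 0 (median 0.16), as did 8 of 8 in complex III (0.18), 14 of 15 in complex IV (0.17), 17 of 18 in complex V (0.14) and 3 of 4 in complex II (0.16). The complex I assembly factors were split, 4 of 8 above 0 with a median of 0.02. An unadjusted p under 0.05 was found for 28 nuclear members, against 5.98% of all genes tested, and the libraries lay entirely above their controls for 20 of the 104 members and entirely below for 2. Over all genes tested these shares were 5.3% and 5.02%.

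Single genes show how small these differences were. Ndufv2, a complex I subunit next to the NADH site, was at 60.1, 51.3 and 50.2 CPM in untreated libraries 1, 5 and 6 and at 65.1, 70.3 and 60.8 CPM with FSH24 (log2 0.28, SE 0.07, adjusted p = 0.815 by edgeR). Uqcr10, a small complex III subunit, was at 29.1, 32.1 and 26.0 CPM and at 34.8, 39.1 and 37.4 CPM (0.35, SE 0.10, adjusted p = 0.815). The FSH24 libraries lay above the controls for both genes. Cox7a2l was likewise above all controls, at 100.4, 107 and 101 CPM against 98.6, 86.9 and 87.7 CPM (0.17, adjusted p = 0.815), the opposite direction from its fall at 10 ng/ml. Ndufaf4, an assembly factor, was the member with the smallest unadjusted p among those below 0 (−0.24, adjusted p = 0.815).

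Short genes in general lay above 0 as well. The 1099 tested protein-coding genes with a transcript under 1000 bases had a median log2 value of 0.13. Of them 78% were above 0, and the short members are part of this set. The 13934 with longer transcripts had a median of −0.00 with 48.7% above 0. The 87 cytosolic ribosomal protein genes had a median of 0.13 with 77 above 0. The part of transcript length in the shift was not tested. The median over nuclear members ranged from 0.10 without treated number 5 to 0.22 without control number 1. The 13 subunits selected above, which do not include Ndufv2, ran from −0.01 (Sdha) to 0.19 (Cox5a). The mitochondrial genes had a median of 0.13, with 10 of 13 above 0 and no unadjusted p under 0.05. With copies summed their median was 0.14, with 12 of 13 above 0.

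With FSH21 at 1 ng/ml no member was called and the nuclear members were centred on 0. edgeR called 0 members, against 0.128% of all genes tested, and DESeq2's Wald test also called 0. An unadjusted p under 0.05 was found for 3 nuclear members, against 7.32% of all genes. The nuclear median log2 value was −0.00, with 44 of 91 above 0, and the 95% interval lay within ±0.5 for 83. The 13 selected subunits ran from −0.08 (Sdhb) to 0.13 (Cox5a). The mitochondrial median was 0.11 but moved between −0.01 without control number 5 and 0.25 without control number 1. With copies summed it was 0.10, with 10 of 13 genes above 0.

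Set against each other, the glycoforms gave no called member at either dose. At 10 ng/ml, the median of FSH21 minus FSH24 was 0.06 over the nuclear members, with 72 of 91 above 0, and 0.05 over the mitochondrial genes. edgeR called 0% of all genes tested and no member, and DESeq2 called 0 members. No member had an unadjusted p under 0.05, against 2.19% of all genes, and 81 of 91 nuclear intervals lay within ±0.5. For Cox7a2l the difference between forms was 0.05 (95% interval −0.10 to 0.19).

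At 1 ng/ml most nuclear members were lower with FSH21 than with FSH24. The median was −0.15, with 7 of 91 above 0, and none of the complex I, III and V subunits was above 0. edgeR called 0 members, against 0.0107% of all genes tested, and 24 nuclear members had an unadjusted p under 0.05, against 9.45% of all genes. DESeq2's Wald test called 3 nuclear members, Atp5g1, Sdhb and Cox7a2l, and 213 genes in all (1.94% of those it gave an adjusted p). Atp5g1, a c subunit gene of the ATP synthase, was at 34.6, 32.9 and 38.0 CPM with FSH21 and at 41.8, 45.8 and 43.4 CPM with FSH24, groups that did not overlap (log2 −0.31, 95% interval −0.47 to −0.16, adjusted p = 0.181 by edgeR). Short protein-coding genes had a median of −0.12 and ribosomal protein genes of −0.36 in this comparison. The 13 selected subunits ran from −0.26 (Sdhb) to 0.04 (Sdha).

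The effect of FSH24 differed between doses for Cox7a2l. Its log2 fold change against its own controls was 0.17 at 1 ng/ml and −0.30 at 10 ng/ml, a difference of −0.47 (SE 0.10, adjusted p = 0.0135 by edgeR), and with Gm6969 summed the difference was −0.51 (adjusted p = 0.00842). It was the 1 member called in the main fit, against 2.45% of all genes tested. DESeq2's Wald test called 3, Cox7a2l, Ndufb5 and Atp5o, against 6.09% of the genes it gave an adjusted p. With the library numbers as a block edgeR called Cox7a2l, Ndufb5 and Uqcrh, against 6.3% of all genes tested. The nuclear median of the FSH24 dose difference was −0.19, with 10 of 91 above 0. It stood beside −0.18 for short protein-coding genes and −0.70 for ribosomal protein genes. Unadjusted p-values under 0.05 were found for 23 nuclear members, against 14.9% of all genes, and 52 of 91 intervals lay within ±0.5. For FSH21 the nuclear median was −0.00, edgeR and DESeq2 each called 0 members (0.272% of all genes by edgeR), and 2 nuclear members had an unadjusted p under 0.05, against 7.01%. On their own rows, the dose difference of mitochondrial genes had medians of −0.21 for FSH21 and −0.22 for FSH24 with no call. Leaving out 1 library moved these own-row medians between −0.33 and −0.09 for FSH21 and between −0.40 and −0.16 for FSH24. With copies summed the medians were −0.24 and −0.32, with 0 of 13 genes above 0 for each form and no call. Dose and number set go together in the treated libraries, so these differences rest on subtracting each set's own controls.

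The untreated sets also differed from each other, with no call. Untreated libraries 2, 3 and 4 against 1, 5 and 6 gave a nuclear median of 0.06, with 70 of 91 above 0, and a mitochondrial median of 0.32, with 12 of 13 above 0. The mitochondrial median lay between 0.17 without low-dose control number 5 and 0.43 without number 1. With copies summed it was 0.28, with 13 of 13 above 0. The medians of the 4 FSH groups against their controls were 0.00, −0.10, 0.11 and 0.13 for these genes on their own rows. They were −0.13, −0.19, 0.10 and 0.14 with copies summed. mt-Cytb differed by 0.32 (SE 0.18) and mt-Co1 by 0.22. edgeR called 0 members and 0% of all genes tested, and DESeq2 called 0 members. An unadjusted p under 0.05 was found for 3 members, all nuclear, against 5.45% of all genes. All 10 oocyte markers were above 0 in the same comparison (median 0.20), 7 of them with an unadjusted p under 0.05 and none called. Their part in the mitochondrial difference was not tested.

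Some genes that serve the pathway without being subunits were called at 10 ng/ml. Of all genes tested, 10.2% and 8.42% were called with FSH21 and FSH24. The lists are short, and their shares were not tested against these. Of 18 tricarboxylic acid cycle genes 2 fell with each form: Idh3b, a subunit of NAD-dependent isocitrate dehydrogenase (−0.25 and −0.27), and Suclg2, of succinyl-CoA synthetase (−0.30 and −0.35). Of 8 tested genes for exchange and uncoupling carriers, FSH21 lowered Slc25a5, an ADP/ATP carrier (−0.33), and Slc25a3, the phosphate carrier (−0.24), and raised the channel gene Vdac3 (0.19). FSH24 lowered Slc25a5 (−0.29). Of 40 assembly factors, Higd1a rose with FSH21 (0.78, adjusted p = 0.0397 by edgeR) and Sco2, a copper chaperone of complex IV, fell with FSH24 (−0.71, adjusted p = 0.0252). Of 18 electron carrier and coenzyme Q genes, Coq10b rose with FSH21 (0.33, adjusted p = 0.0230). Both Cox4i1 and Cox4i2 and both mitochondrial ribosomal RNAs were uncalled.

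Regulators of mitochondrial biogenesis showed a fall of Myc, a transcription factor of growth genes, from 119 ± 7.53 to 50.6 ± 4.01 CPM with FSH21 and to 54.2 ± 5.58 CPM with FSH24 (SD, n = 3; log2 −1.24 and −1.14). Of the 13 regulators tested, Gabpb2, a subunit of GABP, rose with both forms (0.22 each) and Pprc1, a relative of PGC-1, fell with FSH21 (−0.28). Ppargc1a, which encodes PGC-1 alpha, had values of 0.57 and 0.53 and Nrf1 of −0.02 and −0.04, none of them called. Of 29 genes for mitochondrial transcription, RNA processing and DNA replication, Tfb2m, which with the uncalled Tfam (−0.18 and −0.12) starts transcription of the mitochondrial genome, fell with both forms (−0.29 and −0.26). In the same comparisons 69 and 71 of the 87 cytosolic ribosomal protein genes fell (medians −0.54 and −0.59). Surface epithelium markers summed to 37.0 to 49.9 CPM in the controls and to 73.6 to 84.0 CPM with FSH at 10 ng/ml. Of the 6 listed, 4 were tested and 1 was called with each form, and their log2 values began at −1.12 and −0.90. Of 8 granulosa markers, 4 (Kitl, Foxl2, Gata4 and Amhr2) were called higher with each form. With FSH21 6 of the 8 lay above 0, the lowest at −0.58, and with FSH24 5 of 8, the lowest at −0.29. Of 6 theca and steroidogenic markers, 2 were called higher with each form (medians 0.95 and 0.75). With each form 4 of the 6 lay above 0, the lowest at −0.27 with FSH21 and −0.29 with FSH24. Of 7 stroma and smooth muscle markers, 0 lay above 0 with FSH21 (median −0.25) and 1 with FSH24 (median −0.08), none called. Oocyte markers summed to 5753 to 5996 CPM in those controls and to 5014 to 5652 CPM with FSH at 10 ng/ml, none of the 10 called. The part of these cell types in the values of the members was not tested.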

How the data were processed

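The authors deposited 1 table of expected counts per gene for 18 libraries, with lanes merged; that RSEM made them was taken from the column names. Per the submitters' processing notes, bcl2fastq, FastQC, STAR 2.7 and the build mm10 were used. The RSEM version, annotation and strand setting are not given in the sources used here. One untreated column, number 4, wrote its treatment code differently from its titles. The deposited expected counts, of which 33.9% of those above 0 held a fraction, were rounded. Genes passing filterByExpr (minimum count 10) entered edgeR 4.0.16 (R 4.3.3) with TMM scaling and a robust quasi-likelihood fit of 6 groups and no block. Benjamini-Hochberg adjustment ran over all 18727 genes. The fit was tested on simulated counts with the same biological spread for all genes. They held no effect of library number and no reads shared with copies, so that test does not cover these features. DESeq2 1.42.0, other scalings, a fit without a filter, fits of the compared groups alone, leave-one-out fits and a replicate block were alternatives. Deviations of same-numbered libraries correlated at 0.0496 to 0.235, all above the highest of the other pairs (0.0488). For FSH21 at 10 ng/ml against controls 3 of 3 were above 0.1. Blocked values stand beside results at 10 ng/ml where they change a call. Summing annotated copies was chosen after seeing the data. Positions and lengths came from GENCODE M21, which held all 111 members. Length was that of the shortest APPRIS principal transcript, where there was one, otherwise of the longest coding one. The text names every mitochondrial gene, called members, core subunits (1 is not reported here), tissue isoforms and the highest member per complex. Further genes were named after their values were seen. Members and lists were chosen with earlier results of these data known.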

Additional observations from a re-analysis of the deposited data

Results flagged for a closer look

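Cox7a2l stood out because the effect of FSH24 on it was tested to differ between doses. The fold change at 10 ng/ml minus that at 1 ng/ml, each against its own untreated libraries, was −0.47 on the log2 scale (SE 0.10, adjusted p = 0.0135 by edgeR's quasi-likelihood test over all genes). All 3 libraries at 1 ng/ml lay above their controls and all 3 at 10 ng/ml below theirs. Among the 104 tested members this was the 1 that met any of the criteria for a closer look.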

How the results depend on the processing

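No called value reversed its direction under any alternative. Of 513 counts and medians recomputed, 17 moved, and of 6649 values of single named members 13 calls were lost, 22 were gained and 420 uncalled values changed sign. Rows outside that set gained calls in other fits, such as Atp5o in DESeq2 for the dose difference of FSH24 (adjusted p = 0.0429). With FSH21 at 10 ng/ml, leaving out 1 library gave 0 to 3 called nuclear members (0 without control number 2, 1 without treated number 2, 3 or 4) and 0 to 1 called mitochondrial genes (mt-Co1 without treated number 3, log2 −0.42). For FSH24 at 10 ng/ml the leave-one-out range was 1 to 4 nuclear calls (4 without treated number 3, 2 without control number 2), and DESeq2's Wald test gave 2 (Cox7a2l and Ndufb5). For the dose difference of FSH24 it was 1 to 4 (4 without low-dose control number 1 or treated number 3 at 10 ng/ml), and DESeq2 gave 3. For FSH21 against FSH24 at 1 ng/ml, DESeq2 gave 3. The mitochondrial median with FSH21 at 1 ng/ml ranged from −0.0094 (without control number 5) to 0.25 (without control number 1). Calls over all genes with FSH21 at 1 ng/ml went from 24 to 107 in DESeq2, 59 without a filter and 1 in the compared groups alone.

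A replicate block on the shared numbers gave 4 called nuclear members and 1 mitochondrial gene (mt-Co1, −0.30, adjusted p = 0.0313 by edgeR) with FSH21 at 10 ng/ml. It gave 4 nuclear calls with FSH24 at 10 ng/ml (Cox7a2l, Ndufb5 with adjusted p = 0.0424, Ndufaf3 with 0.0414 and the Atp5o readthrough row with 0.0448) and 3 for the dose difference of FSH24 (Cox7a2l, Ndufb5 and Uqcrh). Calls over all genes with the block were 2819 (15.1%) and 2547 (13.6%) at 10 ng/ml, against 1906 and 1577 without it. For the dose difference of FSH24 the block called 6.3% of all genes. Of the 18 pairs of libraries with the same number, 12 had deviations correlated above 0.1 (range 0.0496 to 0.235, other pairs −0.173 to 0.0488). All 18 libraries correlated best with their own number. In the titles each number held an untreated, an FSH21 and an FSH24 library, but the labels do not say what a number stands for. For FSH21 at 10 ng/ml against controls all 3 pairs were above 0.1. The main fit had no block, and blocked values are given beside it. Depth limits Ndufaf3 and the isoforms at a few CPM more than the core subunits, and the rows of mt-Co2 and mt-Nd3 had SEs near 2 on the log2 scale.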
